A study of Homo sapiens and Mus musculus with 16 samples.

Results

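The ZBTB genes encode transcription factors with an amino-terminal BTB domain and carboxy-terminal C2H2 zinc fingers. Members were all symbols made of ZBTB, a number and at most 1 further letter, matched regardless of case. This rule found 41 of the 22286 genes in the human count table and 40 of the 15881 genes in the mouse table. All but ZBTB47 had a member of the same symbol in the mouse table. The readout was the ratio of each member's RNA in purified processing bodies (P-bodies) to the cytoplasm of the same cell type.

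P-bodies are cytoplasmic condensates of RNA and protein that hold translationally repressed mRNA. LSM14A is one of their structural proteins, and GFP-LSM14A particles were sorted from the cytoplasmic fraction by fluorescence. The series held 16 libraries, with 2 P-body and 2 cytoplasm libraries for each of 4 cell types. The cytoplasm libraries were taken before sorting and therefore still contained P-bodies. All groups, cytoplasm included, expressed GFP-LSM14A, in HEK293T and mESC from a lentiviral construct with the EF1a promoter. HEK293T-LSM14a-GFP is a human embryonic kidney line and was labelled as total RNA. KH2-LSM14a-GFP mouse ES cells (mESC) were kept in serum-LIF and were also labelled as total RNA. Liver bud progenitors and day 20 neurons were both differentiated from UCLA4-LSM14a-GFP human ES cells, with GFP-LSM14A placed at the AAVS1 locus in a cassette derived from a tet-regulated vector, and were labelled as polyA RNA. Library chemistry therefore cannot be told apart from cell type where HEK293T or mESC is compared with liver bud cells or neurons.

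In these proteins the zinc fingers contact DNA and the BTB domain forms dimers and recruits corepressors such as NCOR1 and BCOR, so most studied members repress transcription. Several direct cell fate decisions. ZBTB18 and ZBTB20 act in the developing brain, and ZBTB16, ZBTB7A, ZBTB7B and ZBTB46 act in blood and immune lineages. ZBTB33, ZBTB4 and ZBTB38 bind methylated CpG. The members differ widely in their 3′ untranslated regions (UTRs), which are the usual landing sites of RNA-binding repressors such as Pumilio proteins. Windows of 30 bases around the first Pumilio-type motif (TGTANATA) of the 3′ UTR are shown for 5 human members that were called higher in P-bodies in all 4 cell types and held at least 2 such matches each. ZBTB14 also met both criteria and is not shown. The motif match is in capitals, and the windows were read from hg38 on the strand of the gene, inside the 3′ UTR of the GENCODE 44 transcript with the longest protein.
ZBTB11 (chr3:101649791-101649820, minus strand): atgtgccttgaTGTACATAtattactaagt
ZBTB20 (chr3:114331554-114331583, minus strand): gtgtgtgtttgTGTATATActtattgtcat
ZBTB34 (chr9:126884331-126884360, plus strand): tctactaaagcTGTAAATAcatttagaaat
ZBTB41 (chr1:197157980-197158009, minus strand): agcatgtcattTGTACATAaactagtagaa
ZBTB44 (chr11:130232311-130232340, minus strand): ataagtttctgTGTAGATAcccaaagttta
These are letter matches only. In the mouse genes of the same symbols, read the same way, Zbtb41 and Zbtb44 held 0 matches, Zbtb11 and Zbtb20 held 1 each and Zbtb34 held 3. At least 1 match, searched on the sense strand, was found in 18 of the 41 human members, and the density was 0.209 per kb of 3′ UTR in the members against 0.233 per kb over all coding genes of the table. It was also 0.209 per kb in the members called higher in all 3 human cell types.

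Library totals ran from 6368953 to 17972284 counts, so a count of 3 in a library corresponded to 0.167 to 0.471 CPM (counts scaled to a library total of 1000000). Replicates correlated across genes at a Spearman coefficient of 0.962 or more, except for the 2 neuron P-body libraries (0.911). Neuron markers summed to 12229 and 12289 CPM in neuron cytoplasm and to at most 375 CPM in the other cell types. The neural progenitor list was highest in neurons too, at 627 and 589 CPM in cytoplasm, against 229 to 353 CPM in the other cytoplasm libraries. In P-bodies it summed to 998 and 884 CPM in neurons and 237 to 714 CPM in the other cell types. The part of progenitor RNA in the neuron results was not tested. All 12 liver bud markers were present above 3 counts in the liver bud libraries, but at a summed level of only 237 and 247 CPM in cytoplasm. The same list summed to 165 and 174 CPM in HEK293T cytoplasm, with 6 or 7 of the 12 above 3 counts. In mESC cytoplasm it summed to 410 and 412 CPM, with 7 or 8 above 3 counts of the 10 found in the mouse table. In P-bodies the list summed to 166 and 167 CPM in liver bud cells, below HEK293T (273 and 275 CPM), neurons (255 and 252 CPM) and mESC (613 and 597 CPM). The pluripotency list summed to 980 and 1002 CPM in liver bud cytoplasm, against 81.9 and 87.7 CPM in neuron cytoplasm. Its part in the liver bud results was not tested.

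ZBTB transcripts as a group made up a larger share of P-body RNA than of cytoplasmic RNA in every cell type. In HEK293T their summed counts came to 6572 and 6475 CPM in P-bodies and to 3334 and 3333 CPM in cytoplasm. In neurons the sums were 5564 and 5654 CPM in P-bodies and 1845 and 1963 CPM in cytoplasm. In mESC they were 3657 and 3645 against 2222 and 2160 CPM, and in liver bud cells 2966 and 2939 against 2172 and 2125 CPM. The P-body libraries lay above the cytoplasm libraries in all 4 cell types, with the smallest gap in liver bud cells. A few abundant members made up a large part of the gap, namely ZBTB18 and ZBTB20 in neurons and ZBTB21 in HEK293T.

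For single members, levels are given as TMM-normalised CPM within a cell type, and changes as log2 of P-body over cytoplasm from edgeR's quasi-likelihood test with Benjamini-Hochberg adjustment over all genes. A member is called enriched or depleted in P-bodies at an adjusted p under 0.05. In HEK293T, 26 of 41 members were enriched and 3 depleted, where 19.3% of all genes tested were called higher and 22.8% lower. Liver bud cells had 21 enriched members and 6 depleted ones (all genes, 21.4% higher and 17.1% lower). In neurons, 19 were enriched and 5 depleted (all genes, 14.6% higher and 14.1% lower). In mESC, 22 of 40 were enriched and 2 depleted (all genes, 25.8% higher and 20.6% lower). The members' median log2 change was 0.52 in HEK293T, 0.31 in liver bud cells, 0.60 in neurons and 0.46 in mESC. The corresponding medians over all genes tested were -0.01, -0.09, 0.19 and -0.11. Many of these genes were low. With those averaging below 1 CPM left out, 32.0% (HEK293T), 32.3% (liver bud), 19.9% (neurons) and 33.8% (mESC) were called higher. In that order, 38.0%, 24.6%, 21.1% and 20.2% were called lower, with medians of -0.13, 0.05, -0.12 and 0.04. The members, with no such cut, were enriched in 63.4%, 51.2%, 46.3% and 55.0%, above the all-gene shares called higher. All-gene shares elsewhere in the text are without this cut. Both P-body libraries lay above both cytoplasm libraries for 29 members in HEK293T (31.1% of all genes), 24 in liver bud cells (31.2%), 26 in neurons (34.9%) and 30 in mESC (33.6%). They lay below both for 7 members in HEK293T (33.7%), 10 in liver bud cells (32.9%), 10 in neurons (30.1%) and 8 in mESC (39.4%). Enrichment of at least 2-fold was called for 11 members in HEK293T (6.42% of all genes), 6 in liver bud cells (7.89%), 11 in neurons (10.6%) and 12 in mESC (10%).

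**Figure D1:**
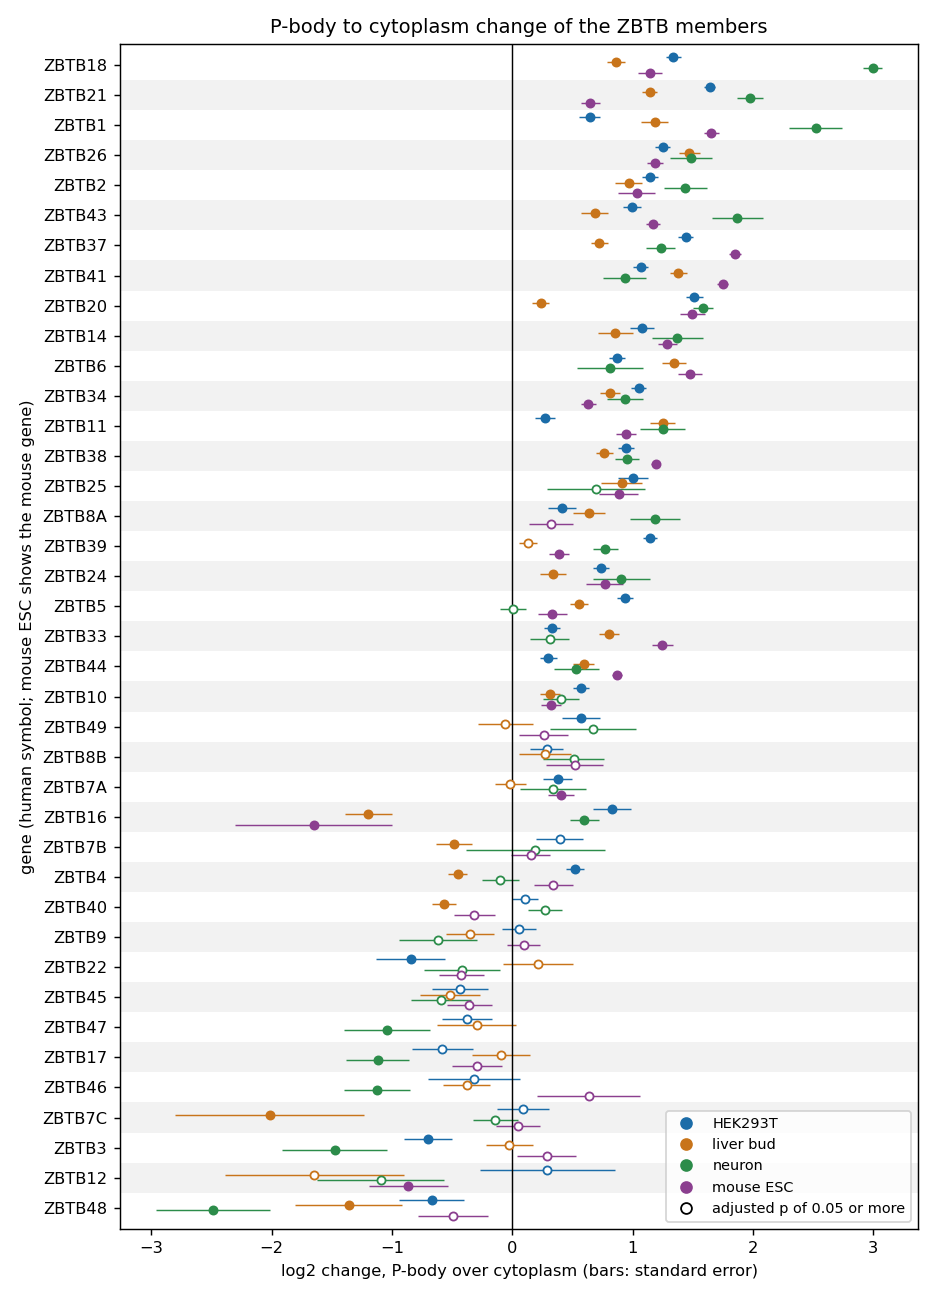
Log2 change of P-body over cytoplasm (x axis) for 39 human members and their mouse namesakes (y axis), with 1 point per cell type, bars of 1 standard error and open points for an adjusted p of 0.05 or more. ZBTB32 and ZBTB42 are left out for low counts. The upper rows hold filled points to the right of 0 in all 4 cell types, and ZBTB48 lies at the bottom, to the left of 0 in all 4.

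The enriched set was largely shared between cell types. Of the 41 human members, 17 were enriched in all 3 human cell types, where 8.44% of the genes tested in all 3 met this criterion. They were ZBTB1, ZBTB2, ZBTB6, ZBTB8A, ZBTB11, ZBTB14, ZBTB18, ZBTB20, ZBTB21, ZBTB24, ZBTB26, ZBTB34, ZBTB37, ZBTB38, ZBTB41, ZBTB43 and ZBTB44. DESeq2 called 14 of these 17 in all 3, without ZBTB6, ZBTB24 and ZBTB44, and library size scaling called 13 of them, without ZBTB11, ZBTB20, ZBTB24 and ZBTB44. All but Zbtb8a were also enriched in mESC (16 members in all 4 cell types). A further 6 members (ZBTB5, ZBTB10, ZBTB16, ZBTB25, ZBTB33 and ZBTB39) were enriched in exactly 2 human cell types, and 3 (ZBTB4, ZBTB7A and ZBTB49) were called enriched in HEK293T and in neither of the other human cell types. ZBTB48 was the 1 member depleted in all 3 human cell types (background 5.77%), a call that rests on HEK293T counts of 45 to 63 and was not made there by DESeq2 (adjusted p 0.26). No member was depleted in all 4 by the adjusted edgeR test or at an unadjusted p under 0.05. For 6 members (ZBTB8B, ZBTB9, ZBTB12, ZBTB32, ZBTB42 and ZBTB45) no human fraction comparison passed the test. Across members, the Spearman correlation of log2 changes between pairs of cell types ran from 0.54 (HEK293T and liver bud, 41 members) to 0.75 (liver bud and mESC, 40 members). It is given as a description, since genes are not independent replicates.

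ZBTB21, a repressor also known as ZNF295 (chr21:41986831-42010387 in hg38), was the most enriched member in HEK293T. It also had the highest cytoplasm level there per kb of longest transcript. Its level was 2014 and 1937 CPM in P-bodies and 633 and 635 CPM in cytoplasm, a log2 change of 1.64 ± 0.05 (SE, n = 2 per fraction, edgeR adjusted p 1.72e-36). The liver bud levels were 394 and 390 CPM against 180 and 176 CPM (log2 change 1.14). In neurons it measured 251 and 280 CPM against 68.3 and 66.8 CPM (log2 change 1.97), and in mESC 83.4 and 85.9 CPM against 50.2 and 57.8 CPM (log2 change 0.65). Both P-body libraries lay above both cytoplasm libraries in all 4 cell types.

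Among the neural development factors, ZBTB18 (chr1:244048547-244057476), a repressor needed for cortical neuron differentiation, showed the largest positive log2 change of any member. In neurons it reached 1994 and 1884 CPM in P-bodies against 247 and 240 CPM in cytoplasm, a log2 change of 3.0 ± 0.08 (SE, n = 2 per fraction, edgeR adjusted p 2.35e-10) or 7.98-fold. In HEK293T its levels were 554 and 528 CPM against 191 and 237 CPM (log2 change 1.34 ± 0.06). Liver bud P-bodies held 186 and 178 CPM against 99.3 and 101 CPM in cytoplasm (log2 change 0.86 ± 0.07). In mESC they were 63.6 and 74.5 CPM against 28.9 and 33.4 CPM (log2 change 1.15 ± 0.10). The fractions did not overlap in any cell type.

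ZBTB20 (chr3:114314500-115147292), which acts in hippocampal and glial development and represses AFP in liver, was enriched more than 2-fold in all but the liver bud cells. Its level in neurons was 1067 and 1208 CPM in P-bodies against 377 and 380 CPM in cytoplasm (log2 change 1.59 ± 0.08). In HEK293T it was 182 and 181 CPM against 67.6 and 59.2 CPM (log2 change 1.51 ± 0.07), and in mESC 61.5 and 64.5 CPM against 23.7 and 20.9 CPM (log2 change 1.5 ± 0.10). In liver bud cells the P-body libraries, at 206 and 208 CPM, lay only slightly above the cytoplasm libraries at 182 and 170 CPM. That change of 0.23 ± 0.07 passed the test (edgeR adjusted p 0.0035) but not with scaling by library size alone, where it was 0.05, nor with a low-count filter or without the second cytoplasm library, where it was 0.15. ZBTB45, the other member of this group, had log2 changes from -0.59 to -0.36 and passed the test in no cell type.

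**Figure D2:**
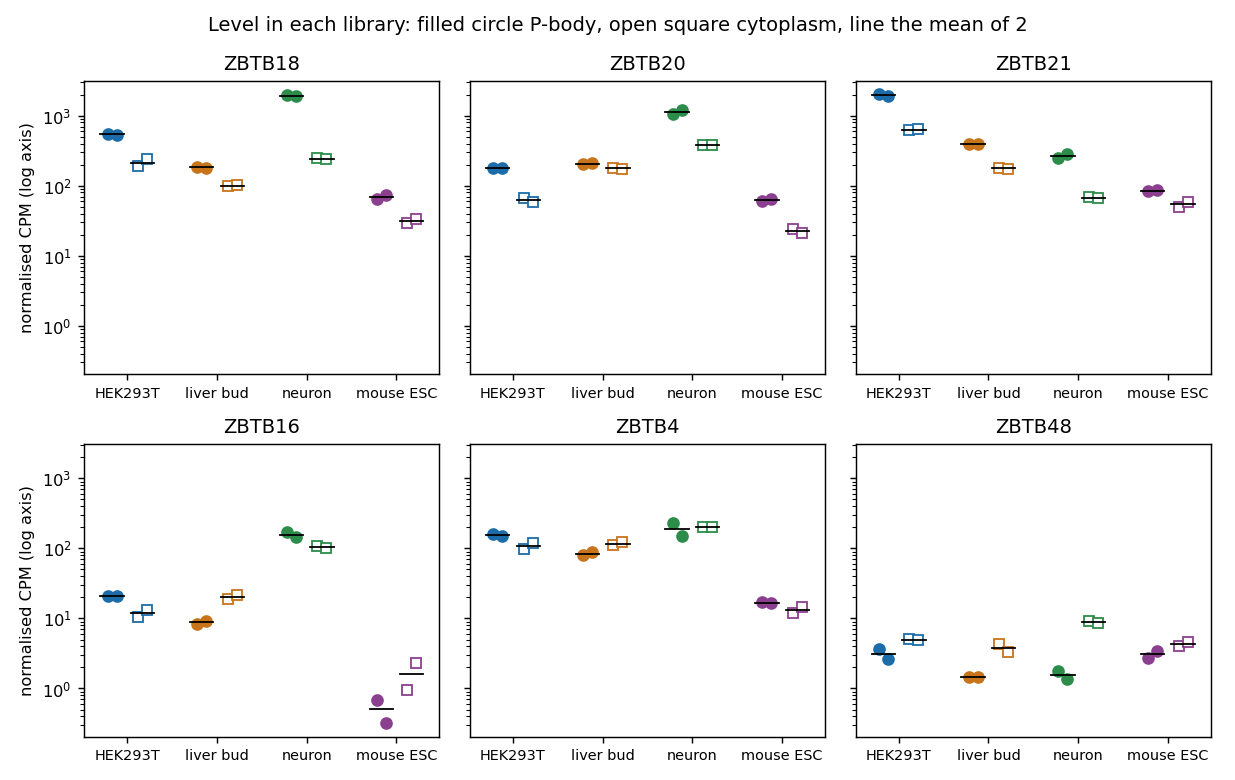
Normalised CPM (log axis) of 6 members in each of the 16 libraries, by cell type, with P-body libraries as filled circles, cytoplasm libraries as open squares and the mean of 2 as a line; mouse ESC shows the mouse gene. ZBTB18 in neuron P-bodies stands at 1994 and 1884 CPM, and for ZBTB16 the circles lie above the squares in HEK293T and neurons and below them in liver bud cells and mouse ESC.

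The blood and immune lineage factors were mixed. ZBTB16 (PLZF; chr11:114059041-114256765), which marks innate-like T cells and spermatogonial stem cells, was called in opposite directions. It was enriched in HEK293T, at 21.3 and 20.7 CPM in P-bodies against 10.5 and 13.1 CPM in cytoplasm (log2 change 0.83 ± 0.16). It was also enriched in neurons, at 172 and 144 CPM against 108 and 101 CPM (log2 change 0.60 ± 0.12). By contrast it was depleted in liver bud cells, at 8.41 and 9.32 CPM against 19.0 and 21.6 CPM (log2 change -1.20 ± 0.19, edgeR adjusted p 2.8e-07). In mESC it was near the detection limit, at 7 and 3 counts in P-bodies and 9 and 22 in cytoplasm. The mESC log2 change of -1.65 passed the edgeR test (adjusted p 0.042) but not DESeq2 (adjusted p 0.18), and it no longer passed without the second cytoplasm library (-0.90) or the second P-body library (-1.19).

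ZBTB1, a factor of lymphoid development and the DNA damage response, was enriched in all 4 cell types, most in neurons. Its neuron level was 42.3 and 51.8 CPM in P-bodies against 8.88 and 7.50 CPM in cytoplasm (log2 change 2.52 ± 0.22, edgeR adjusted p 2.26e-06). In mESC it was 225 and 204 CPM against 68.5 and 67.9 CPM (log2 change 1.65 ± 0.06). The log2 changes in liver bud cells and HEK293T were 1.18 and 0.64. Exons of ZBTB1 overlap those of ZBTB25 on the opposite strand, and the strand setting of the counting is not given in the sources used here, so reads of the 2 genes may be shared. The same holds for other members, among them ZBTB16, ZBTB20, ZBTB21, ZBTB38 and mouse Zbtb33 and Zbtb37, which overlap opposite-strand exons. ZBTB8A, ZBTB8B, ZBTB20 and ZBTB24 overlap exons of another gene on the same strand. So do mouse Zbtb9, Zbtb11, Zbtb20, Zbtb21 and Zbtb22, and mouse Zbtb6 and Zbtb26 overlap each other.

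ZBTB7A, a repressor of fetal globin genes, measured 35.9 and 33.5 CPM in HEK293T P-bodies against 25.6 and 27.8 CPM in cytoplasm, and was enriched (log2 change 0.38 ± 0.12). In mESC it measured 39.1 and 40.9 CPM against 32.4 and 28.0 CPM and was enriched (log2 change 0.41 ± 0.11). Both calls were lost with library size scaling, at 0.25 in HEK293T and 0.0045 in mESC, and the HEK293T call also without the first P-body library (adjusted p 0.073). In liver bud cells (31.3 and 35.1 against 30.5 and 36.6 CPM) and neurons (15.4 and 13.5 against 11.6 and 11.3 CPM) it did not pass the test. ZBTB7B (ThPOK), which commits T cells to the CD4 lineage, was depleted in liver bud cells, at 20.7 and 18.3 CPM against 27.4 and 27.2 CPM (log2 change -0.48 ± 0.15, edgeR adjusted p 0.0065). This call was lost in DESeq2 (adjusted p 0.063), in a single fit of all 12 human libraries (adjusted p 0.10) and without the second P-body library (adjusted p 0.086). Its log2 changes in HEK293T, neurons and mESC were 0.39, 0.19 and 0.15, none past the test, and it stood at 10.9 and 8.94, 2.65 and 3.56, and 14.5 and 15.2 CPM in the P-bodies of these cells against 6.83 and 8.26, 2.64 and 2.80, and 13.5 and 13.2 CPM in cytoplasm.

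ZBTB17 (MIZ1), the partner through which MYC represses its targets, was depleted in neurons, at 11.1 and 9.0 CPM against 21.7 and 22.0 CPM (log2 change -1.12 ± 0.26, edgeR adjusted p 0.0055). With either neuron cytoplasm library left out the change was still -1.14 or -1.12, but the adjusted p rose to 0.065 and 0.068. Its levels in HEK293T (3.63 and 3.60 against 5.46 and 5.36 CPM), liver bud cells (9.53 and 7.14 against 9.22 and 8.60 CPM) and mESC (6.39 and 9.18 against 9.67 and 9.32 CPM) gave log2 changes of -0.58, -0.10 and -0.29, none past the test. ZBTB46, which marks classical dendritic cells, was also depleted in neurons, at 10.9 and 8.60 CPM against 19.3 and 23.3 CPM (log2 change -1.12 ± 0.27). That call was lost without the second cytoplasm library (adjusted p 0.14).

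The 3 methyl-CpG binders were enriched in HEK293T. ZBTB38 was enriched in all 4 cell types and had the highest mESC cytoplasm level per kb of longest transcript. In mESC it measured 1058 and 1071 CPM in P-bodies against 480 and 452 CPM in cytoplasm (log2 change 1.19 ± 0.04, edgeR adjusted p 4.38e-18). In HEK293T it stood at 252 and 256 against 130 and 134 CPM, in liver bud cells at 174 and 171 against 102 and 100 CPM and in neurons at 202 and 197 against 101 and 105 CPM, with log2 changes of 0.94, 0.77 and 0.96. ZBTB33 (Kaiso), whose fingers read methylated CpG pairs, rose from 32.4 and 31.7 CPM in mESC cytoplasm to 77.5 and 74.6 CPM in P-bodies (log2 change 1.25 ± 0.09). In liver bud cells it measured 126 and 120 against 75.3 and 65.6 CPM (log2 change 0.81), and in HEK293T 210 and 206 against 173 and 158 CPM (log2 change 0.33). In neurons the values of 57.5 and 76.2 CPM against 53.0 and 55.0 CPM did not pass the test (log2 change 0.31 ± 0.16), but passed without the first P-body library (0.50, adjusted p 0.0049) and with library size scaling (0.48, adjusted p 0.044).

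ZBTB4, the remaining methyl-CpG binder, was called in opposite directions in 2 cell types. It was enriched in HEK293T, at 160 and 150 CPM against 98.0 and 118 CPM (log2 change 0.52 ± 0.07), and depleted in liver bud cells, at 81.3 and 87.7 CPM against 110 and 121 CPM (log2 change -0.45 ± 0.08). The fractions did not overlap in either. In neurons the P-body libraries differed from each other, at 227 and 150 CPM, and straddled the cytoplasm libraries at 200 and 204 CPM. Without the first neuron P-body library the neuron log2 change went from -0.10 to -0.43 and passed the test (edgeR adjusted p 0.0020). In mESC it measured 17.1 and 16.3 against 12 and 14.4 CPM (log2 change 0.34, adjusted p 0.088).

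Of the genome maintenance factors, ZBTB24, which is mutated in an immunodeficiency with loss of centromeric DNA methylation, was enriched in all 4 cell types. Its levels were 200 and 204 CPM in HEK293T P-bodies against 128 and 115 CPM in cytoplasm (log2 change 0.73 ± 0.07), and in neurons 26.1 and 26.1 against 12.2 and 15.7 CPM (log2 change 0.91 ± 0.24). In mESC they were 22.1 and 19.8 against 13.2 and 11.5 CPM (log2 change 0.77), a call lost with library size scaling (0.36, adjusted p 0.0501). The liver bud levels were 56.6 and 54.1 against 46.4 and 41.4 CPM (log2 change 0.34), a call lost in DESeq2 (adjusted p 0.11), with library size scaling (adjusted p 0.29) and without the second cytoplasm or the first P-body library (adjusted p 0.20 and 0.082). In the neuron comparison the call was lost without the first cytoplasm library (adjusted p 0.21). ZBTB48 (TZAP), which binds telomeric repeats and trims long telomeres, was low and depleted in the 3 human cell types. In neurons it measured 1.77 and 1.38 CPM in P-bodies against 9.07 and 8.70 CPM in cytoplasm, that is 16 and 14 counts against 96 and 87 (log2 change -2.49 ± 0.47, edgeR adjusted p 0.0014). Its log2 changes were -1.36 in liver bud cells (13 and 14 counts against 29 and 26) and -0.67 in HEK293T (54 and 45 counts against 63 and 58, adjusted p 0.040). The neuron call was kept when any 1 library was left out. The HEK293T call was lost in DESeq2, with its size factors, in the fit of all 12 human libraries, with the low-count filter and without either cytoplasm library or the second P-body library (adjusted p from 0.054 to 0.38). The liver bud call was lost in DESeq2 (adjusted p 0.087) and without the first cytoplasm library (adjusted p 0.12). ZBTB40, a telomere-associated member, was depleted in liver bud cells, at 42.7 and 46.1 against 66.5 and 65.1 CPM (log2 change -0.57 ± 0.10), and did not pass the test elsewhere.

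ZBTB11, a factor of mitochondrial gene expression and neutrophil development, and ZBTB10, a repressor of SP factors, were enriched to different degrees. ZBTB11 rose from 30.5 and 36.2 CPM to 81.1 and 77.9 CPM in liver bud cells (log2 change 1.25 ± 0.10) and from 17.8 and 18.0 CPM to 43.4 and 41.6 CPM in neurons (1.25 ± 0.19). In mESC it rose from 38.3 and 39.7 CPM to 75 and 75.1 CPM (0.94 ± 0.08). In HEK293T the change from 92.8 and 76.0 CPM to 96.5 and 107 CPM (0.27 ± 0.08) was lost with library size scaling (0.14) and without the second cytoplasm or the second P-body library (0.14 and 0.19). ZBTB11-AS1 overlaps ZBTB11 on the opposite strand, so its reads may be included. ZBTB10 measured 173 and 183 against 124 and 116 CPM in HEK293T (log2 change 0.57), 91.5 and 106 against 78.3 and 80.6 CPM in liver bud cells (0.31) and 63.7 and 62.0 against 51.9 and 48.7 CPM in mESC (0.32), enriched in each. Library size scaling ended the liver bud call at 0.13, as did leaving out the second P-body library (0.20), and turned the mESC value to -0.08. In neurons it stood at 70.6 and 59.7 against 50.7 and 47.5 CPM (0.41, adjusted p 0.058), and passed the test without the second P-body library (0.52).

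Several less studied members were among the most enriched. ZBTB37 rose in HEK293T from 158 and 163 to 442 and 428 CPM (log2 change 1.44 ± 0.06) and in mESC from 97.6 and 93.4 to 346 and 342 CPM (1.85 ± 0.05, edgeR adjusted p 2.1e-19). ZBTB41 rose in mESC from 213 and 196 to 703 and 668 CPM (1.75 ± 0.05) and in liver bud cells from 112 and 94.6 to 277 and 261 CPM (1.38 ± 0.07). ZBTB26 rose in liver bud cells from 50.8 and 52.4 to 150 and 136 CPM (1.47 ± 0.09), the largest change there. ZBTB6 rose in the same cells from 40.3 and 31.7 to 92.0 and 90.0 CPM (1.34 ± 0.10). In neurons ZBTB43 rose from 10.8 and 14.6 to 45.7 and 47.0 CPM (1.87 ± 0.21). None of these fraction pairs overlapped.

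At the other end, ZBTB3 was depleted in HEK293T, from 12 and 9.11 to 6.65 and 6.33 CPM (log2 change -0.70 ± 0.20), and in neurons, from 10.6 and 8.90 to 4.63 and 2.37 CPM (-1.48 ± 0.44). The HEK293T call was lost in DESeq2 (adjusted p 0.073), in the fit of all 12 human libraries (adjusted p 0.13) and without the first cytoplasm library (adjusted p 0.14), and the neuron call without either cytoplasm library (adjusted p 0.23 and 0.096). ZBTB47 was depleted in neurons (-1.04), ZBTB22 in HEK293T (-0.84), ZBTB7C in liver bud cells (-2.02, at 0.336 and 0.414 CPM against 1.76 and 1.39 CPM) and Zbtb12 in mESC (-0.86). DESeq2 called none of these 4 (adjusted p from 0.11 to 0.21), and each was also lost in edgeR without at least 2 of the 4 libraries taken out in turn. No member with a mean of at least 5 CPM was depleted in mESC, and over all members the adjusted edgeR test called 2 there against 3 at an unadjusted p under 0.05. ZBTB32 had at most 3 counts in every human library, and ZBTB42 at most 17, so neither could be placed.

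The difference in P-body ratio between neurons and liver bud cells, which share a line and a chemistry, was tested as an interaction over 8 libraries. The neuron ratio was higher for 10 members and lower for 2, where 9.21% of all genes were called higher and 8.50% lower. The median difference was 0.23 both over the members and over all genes tested. The interaction was normalised over its own libraries, so it can differ slightly from the subtraction of the changes above. ZBTB18 showed the largest difference of the called members, 2.13 ± 0.10 on the log2 scale (SE, edgeR adjusted p 5.16e-09), from 0.86 in liver bud cells to 3.0 in neurons. ZBTB20 differed by 1.35 ± 0.10 (adjusted p 4.42e-07) and ZBTB16 by 1.79 ± 0.20 (adjusted p 1.58e-05). The other members with a higher ratio in neurons were ZBTB1 (1.33), ZBTB7C (1.86, with at most 1.76 CPM in liver bud cells), ZBTB21 (0.82), ZBTB37 (0.50), ZBTB39 (0.63), ZBTB40 (0.83) and ZBTB43 (1.18). ZBTB5 (-0.56 ± 0.13, adjusted p 0.0088) and ZBTB3 (-1.46 ± 0.45, adjusted p 0.036) had a lower ratio in neurons. ZBTB5, a repressor of the cell cycle inhibitor CDKN1A, measured 118 and 127 CPM in neuron P-bodies against 122 and 122 CPM in cytoplasm, and 161 and 182 against 112 and 121 CPM in liver bud cells. With library size scaling, 16 members were higher and none lower (1 lower at an unadjusted p under 0.05), and ZBTB5 and ZBTB3 moved to -0.20 and -1.11 without passing the test.

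**Figure D3:**
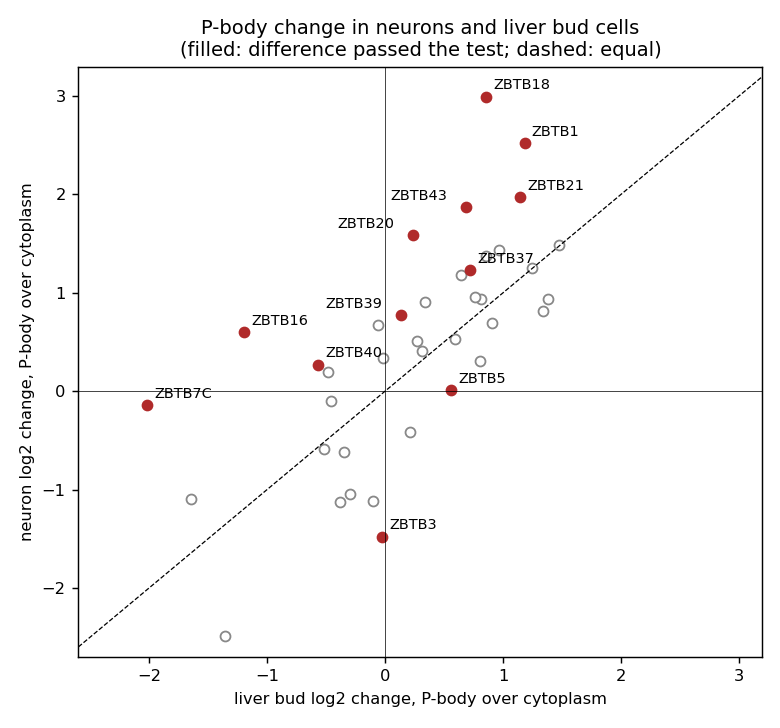
Log2 change of P-body over cytoplasm in liver bud cells (x axis) and neurons (y axis) for 39 human members, with the 12 members whose difference passed the interaction test filled and named and the line of equal change dashed. ZBTB18 lies highest, at 3.0 in neurons and 0.86 in liver bud cells, and ZBTB16 lies left of 0 and above 0.

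Differences from HEK293T, in which cell type, line and chemistry cannot be told apart, were also tested. The neuron ratio was higher than that of HEK293T for 4 members (6.35% of all genes) and lower for 4 (6.19%). ZBTB1 (1.74 ± 0.21) and ZBTB18 (1.52 ± 0.11) were higher, as were ZBTB11 (0.84) and ZBTB43 (0.74). ZBTB5 (-1.07), ZBTB4 (-0.76), ZBTB39 (-0.51) and ZBTB48 (-1.97) were lower. The liver bud ratio was lower than that of HEK293T for 21 members (15.0% of all genes) and higher for 1, ZBTB11 at 0.75 ± 0.14 (12.5% of all genes). The lower members included ZBTB16 (-2.25 ± 0.25), ZBTB20 (-1.51 ± 0.11), ZBTB39 (-1.24 ± 0.10) and ZBTB4 (-1.20 ± 0.12). The median difference over all genes was -0.21 in the liver bud comparison and -0.45 over the members. In a single fit of all 12 human libraries 13 members, rather than 21, were lower.

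Levels within a fraction also differed between neurons and liver bud cells, and a lower level here can mean fewer cells expressing a gene or less RNA per cell, which bulk libraries cannot tell apart. In cytoplasm 15 members were higher in neurons and 16 lower (all genes, 26.0% and 25.8%), and in P-bodies 10 were higher and 16 lower (18.4% and 22.7%). ZBTB18 averaged 262 CPM in neuron cytoplasm against 93.6 CPM in liver bud cytoplasm, a log2 difference of 1.49 ± 0.09. In P-bodies its means were 1954 against 179 CPM, a log2 difference of 3.45 ± 0.07. ZBTB16 was 112 against 19.0 CPM in cytoplasm (2.56 ± 0.12) and 159 against 8.73 CPM in P-bodies (4.18 ± 0.15). ZBTB7C, at 36.8 against 1.47 CPM in cytoplasm (4.64 ± 0.25), showed the largest cytoplasmic difference in favour of neurons, and ZBTB7B, at 2.94 against 25.5 CPM (-3.11 ± 0.24), the largest in favour of liver bud cells.

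Compared per kb of the longest annotated transcript of each gene, cytoplasmic levels ranked differently in each cell type. These ranks depend on that choice of transcript. In HEK293T, ZBTB21 led at 85.1 ± 0.12 CPM per kb (SD, n = 2), above ZBTB18 at 54.1 ± 8.29 and ZBTB2 at 32.1 ± 0.99 CPM per kb. In neurons ZBTB18 led at 61.5 ± 1.23 CPM per kb, followed by ZBTB4 at 33.9 ± 0.45 and ZBTB5 at 26.0 ± 0.03 CPM per kb. In liver bud cells ZBTB18 (25.4 ± 0.34), ZBTB5 (24.9 ± 1.28) and ZBTB21 (23.8 ± 0.36 CPM per kb) led. The first of these did not exceed the second beyond the spread of its libraries. In mESC Zbtb38 stood at 62.9 ± 2.69 CPM per kb, above Zbtb44 at 28.0 ± 0.02 and Zbtb41 at 24.4 ± 1.46 CPM per kb.

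The members' sequence features, which the symbol rule did not use, tracked their P-body ratio. The transcripts of the 17 members enriched in all 3 human cell types held 32.9% to 44.9% GC (median 39.4%), against 61.3% for ZBTB48 and 37.2% to 65.9% (median 54.9%) for the other 23 members. The median over all coding genes of the table was 48.2%. Among members with a mean of at least 1 CPM, the Spearman coefficient between GC content and log2 change was -0.60 in HEK293T (38 members), -0.84 in liver bud cells (39), -0.74 in neurons (39) and -0.87 in mESC (39). Over all genes above the same level it was -0.54, -0.59, -0.50 and -0.58. The 3′ UTR of the 17 members had a median of 3816 bases, against 2416 bases in the 23 others and 1037 bases over all coding genes. The coefficient with 3′ UTR length was 0.43, 0.37, 0.40 and 0.51 in HEK293T, liver bud cells, neurons and mESC. The number of zinc fingers, read from the protein as C2H2 matches, ran from 2 to 14 with a median of 4 in both groups, and its coefficient with the log2 change was between -0.06 and 0.10. These correlations are across genes of shared libraries and are descriptions.

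**Figure D4:**
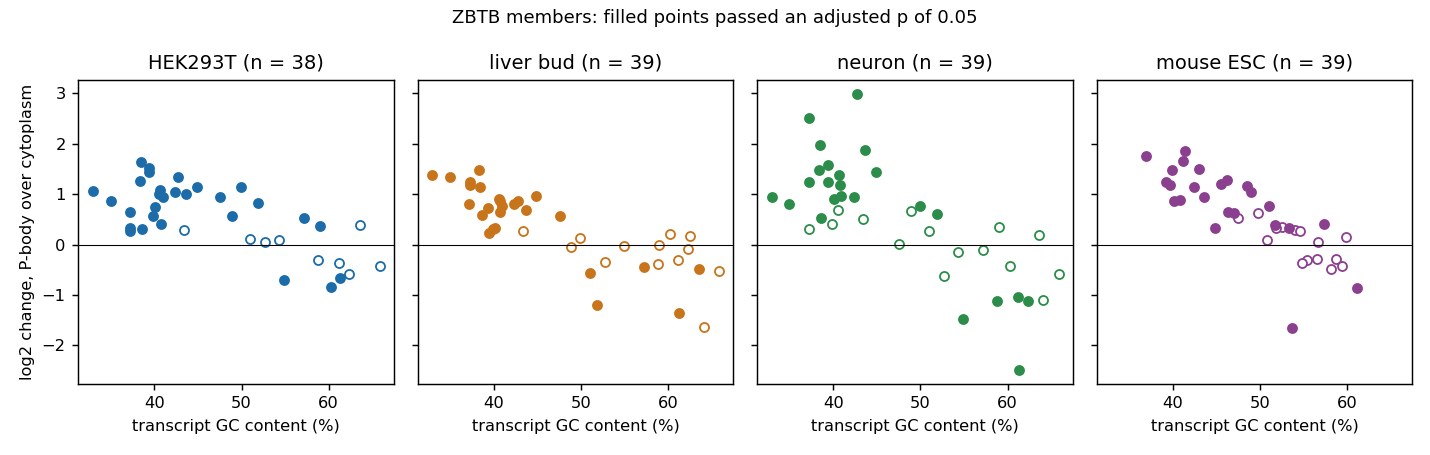
Transcript GC content in percent (x axis) against log2 change of P-body over cytoplasm (y axis) for ZBTB members with a mean of at least 1 CPM, 1 panel per cell type, filled where the change passed the test. Members below 45% GC lie above 0 in all 4 panels, and the negative values lie at higher GC, with Spearman coefficients from -0.60 to -0.87.

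Other gene families shared either the zinc fingers or the BTB domain with the members. Among ZNF symbols, most of which encode C2H2 zinc finger proteins without a BTB domain, 323 of 530 genes tested were enriched in HEK293T (60.9%), 284 of 531 in liver bud cells (53.5%), 262 of 531 in neurons (49.3%) and, as mouse Zfp symbols, 277 of 381 in mESC (72.7%). The corresponding shares of ZBTB members were 63.4%, 51.2%, 46.3% and 55.0%. KLHL genes, whose proteins carry a BTB domain with Kelch repeats and no zinc fingers, were enriched in 34.3% of 35 genes in HEK293T and in liver bud cells, 31.4% in neurons and 31.0% of 29 in mESC. KCTD genes, which encode small BTB proteins, were enriched in 20.0% of 20 genes tested in HEK293T, 23.8% of 21 in liver bud cells, 15.0% of 20 in neurons and 20.0% of 20 in mESC. The ZBTB share was higher than the ZNF share in HEK293T and lower than the ZNF or Zfp share in the other cell types. The ZBTB shares were above those of both other BTB families in every cell type. In the interaction of neurons and liver bud cells, the neuron ratio was higher for 24.4% of ZBTB members and 24.1% of ZNF genes. It was lower for 4.88% and 2.45%. KLHL genes were called higher in 8.57% and lower in 8.57%, and KCTD genes in 0% and 14.3%. The differences between families were not tested.

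**Figure D5:**
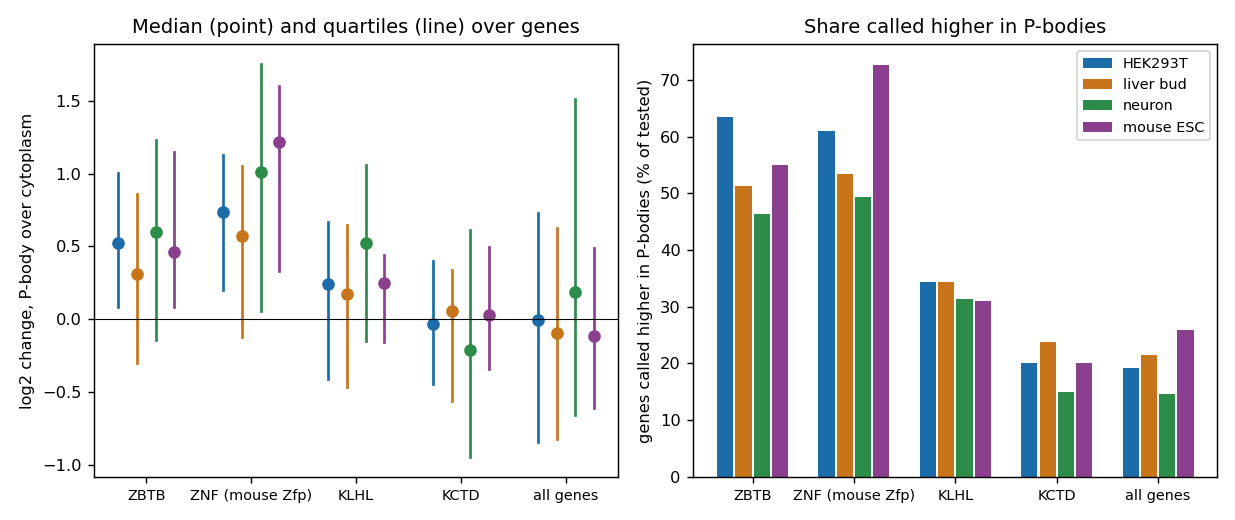
Left, median log2 change of P-body over cytoplasm (point) with quartiles (line) over the genes of each family and over all genes tested, by cell type; right, the percentage of genes tested that were called higher in P-bodies. The ZBTB bars (46.3% to 63.4%) and ZNF bars (49.3% to 72.7%) are the tallest, and the KCTD bars (15.0% to 23.8%) are near those of all genes.

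BTB zinc finger genes that carry other names included both enriched and depleted genes. MYNN was enriched in all 4 cell types, with log2 changes of 0.89 in HEK293T, 1.07 in liver bud cells, 1.52 in neurons and 1.6 in mESC, and ZNF131 in the 3 human ones (0.97, 1.4 and 2.22). BCL6, the germinal centre repressor, was enriched in HEK293T (1.73), neurons (1.52) and mESC (1.02) and did not pass the test in liver bud cells (0.22). PATZ1 went the other way, with log2 changes of -0.97 in HEK293T, -0.51 in liver bud cells, -0.82 in neurons and -0.28 in mESC, each past the test. HIC2 was also depleted in the 3 human cell types (-0.79, -0.67 and -0.52) but not in mESC (0.08). HIC1 was depleted in liver bud cells and neurons (-1.19 and -0.85). Of the 8 genes, 4 were enriched and 2 depleted in HEK293T (all genes, 19.3% and 22.8%). In liver bud cells the numbers were 2 and 3 (all genes, 21.4% and 17.1%) and in neurons 4 and 3 (14.6% and 14.1%). Of the 7 in mESC, 3 were enriched and 1 depleted (25.8% and 20.6%).

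The corepressors and other partners of these proteins did not move together. Of 25 partners, 11 were enriched and 9 depleted in HEK293T (44% and 36%, against 19.3% and 22.8% of all genes). In liver bud cells the numbers were 6 and 13 (24% and 52%, against 21.4% and 17.1%). Neurons had 7 and 6 (28% and 24%, against 14.6% and 14.1%). In mESC there were 13 and 6 (52% and 24%, against 25.8% and 20.6%). Values are log2 changes in HEK293T, liver bud cells, neurons and mESC in that order. NCOR1 was enriched in HEK293T, neurons and mESC and did not pass the test in liver bud cells (1.11, -0.099, 0.69 and 0.63). SIN3A, a histone deacetylase scaffold, was enriched in the same 3 and depleted in liver bud cells (1.05, -0.30, 0.85 and 1.39). TBL1XR1, a subunit of the NCOR1 complex, was enriched in all 4 (0.65, 1.08, 1.14 and 1.03), as was the deacetylase HDAC2 (0.24, 0.80, 0.87 and 0.31). TRIM28 was depleted in all 4 (-1.52, -0.90, -1.18 and -0.44). HDAC3 was depleted in HEK293T and neurons (-1.59, -0.010, -0.60 and -0.22). BCORL1 was depleted in liver bud cells and mESC (-0.20, -1.37, -0.25 and -0.39), and CTBP1 in HEK293T and neurons (-0.61, -0.013, -1.14 and 0.072). CHD4, the nucleosome remodelling subunit of the NuRD complex, was depleted in all but neurons (-0.42, -0.67, 0.016 and -0.64).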

How the data were processed

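Counts per gene were deposited by the authors in a human (hg38) and a mouse (mm10) table with 4 libraries per cell type. Per the study's methods, total RNA libraries were quantified with an nf-core and salmon pipeline and oligo(dT) libraries with HISAT and featureCounts on refGene. Which pipeline made the polyA columns, and whether counting used strand, are not given in the sources used here. Genes with a total under 10 had been removed. The authors' own comparison tables (fold changes and p-values) were not used.

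Each comparison was fitted with edgeR 4.0.16 (R 4.3.3) on the deposited counts, using TMM scaling, the quasi-likelihood test without covariates and Benjamini-Hochberg adjustment over all genes with a count in the libraries compared. A two-sided adjusted p under 0.05 was called. Members and gene lists were chosen with earlier results of these data known. Values in every library are given for 12 preset members, for the 4 most enriched and 3 most depleted members called in each cell type with a mean of at least 5 CPM, for members called in opposite directions, and for the 3 members per direction with the smallest p in the neuron and liver bud interaction. Values of other members were chosen after they were seen. Of the 25 partner genes counted, 1 is not reported here by name. Transcript features came from GENCODE 44 and M21, matched by symbol for 92.5% of human and 97.6% of mouse genes. On simulated counts for HEK293T (21576 genes, 200 of them changed by 1.58 on the log2 scale) the test recovered 100.0%, with 3 false calls, and for the neuron and liver bud interaction (22250 genes) it recovered 99.5%, with 10 false calls. The changed genes were drawn from those above a minimum level that several members named here did not reach. Most member changes were also smaller than 1.58, so this recovery does not extend to low members or small changes. The study describes the 2 libraries per group as biologically independent, while the labels name no culture, so p-values measure the spread between these libraries. The limit of 3 counts covers counting error only. Alternatives were DESeq2 1.42.0, its size factors, library size only, a low-count filter, a single fit of all 12 human libraries, a replicate block and leaving out each library.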

Additional observations from a re-analysis of the deposited data

Results flagged for a closer look

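The difference in P-body ratio between 2 cell types passed the interaction test for these members. Between neurons and liver bud cells it was 2.13 on the log2 scale for ZBTB18, 1.79 for ZBTB16 and 1.35 for ZBTB20, all higher in neurons, and -0.56 for ZBTB5 and -1.46 for ZBTB3, both lower in neurons. For ZBTB16 the 2 P-body libraries lay above the cytoplasm libraries in neurons and below them in liver bud cells. The ZBTB3 value rests on low levels (4.63 and 2.37 CPM in neuron P-bodies) and lost its call in DESeq2 (adjusted p 0.066) and without either of the 2 cytoplasm or the 2 P-body libraries of liver bud cells (adjusted p from 0.082 to 0.15) or the first neuron cytoplasm library (0.11). The ZBTB5 call was lost without the first liver bud cytoplasm library (adjusted p 0.057) and without the second liver bud P-body library (0.074).

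Between liver bud cells and HEK293T the differences were -2.25 for ZBTB16 and -1.20 for ZBTB4, each enriched in HEK293T and depleted in liver bud cells. Cell type, line and library chemistry cannot be told apart in this pair. The pluripotency marker list summed to 980 and 1002 CPM in liver bud cytoplasm and to 19.4 and 20.5 CPM in HEK293T cytoplasm, and its part in these differences was not tested.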

How the results depend on the processing

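The numbers of members called higher in each of the 4 fraction comparisons stayed within 1.5 times under every alternative run. Library size scaling, which moved the all-gene median by -0.13 (HEK293T), -0.18 (liver bud), 0.17 (neurons) and -0.40 (mESC), moved the members' median to 0.39, 0.13, 0.76 and 0.060 and gave 6, 10 and 9 depleted members in HEK293T, liver bud cells and mESC. It turned Zbtb10 in mESC to -0.079, and gave 16 higher and 0 lower members for neurons against liver bud cells (1 lower at an unadjusted p under 0.05), 8 and 1 for neurons against HEK293T and 4 higher for liver bud cells against HEK293T. DESeq2 called 0 depleted members in HEK293T (1 at an unadjusted p, with 2 members given no adjusted p) and 0 in mESC (0 at an unadjusted p), where edgeR called 3 and 2 (5 and 3 unadjusted), called 3 in liver bud cells and 1 lower interaction of neurons and liver bud cells. The HEK293T median was 0.61 with DESeq2 or its size factors, 0.65 in the fit of all 12 human libraries and 0.60 with the low-count filter. The fit of all 12 libraries called 0 depleted members in HEK293T (1 unadjusted), gave a neuron median of 0.49 and gave 6 lower members for neurons against liver bud cells and 13 for liver bud cells against HEK293T. The low-count filter gave a liver bud median of 0.20, 5 depleted members in mESC and 5 higher members for liver bud cells against HEK293T.

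Leaving out 1 library gave 24 to 26 enriched and 1 to 4 depleted members in HEK293T, 19 to 21 and 4 to 5 in liver bud cells, 16 to 21 and 1 to 7 in neurons and 21 to 22 and 1 to 4 in mESC. The medians ran from 0.48 to 0.56, 0.23 to 0.31, 0.50 to 0.75 and 0.42 to 0.54. The interactions gave 8 to 11 higher and 0 to 9 lower members (neurons and liver bud cells), 2 to 6 and 2 to 10 (neurons and HEK293T) and 1 to 3 and 17 to 21 (liver bud cells and HEK293T). In these fits the lone library of a fraction was assumed to vary like the others.

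Same-numbered libraries did not deviate together (r from -0.16 in HEK293T to 0.12 in neurons, 2 pairs each), so the numbers were not taken as pairs. With a replicate block 4 members, rather than 2, had a lower ratio in neurons than in liver bud cells, and ZBTB10 in neurons passed the test (adjusted p 0.025). The count of members enriched in all 3 human cell types was 14 with DESeq2 or library size scaling and 17 or 18 otherwise, and ZBTB48 was depleted in all 3 in the reported fit, with library size scaling and with the block, but not with DESeq2, its size factors, the low-count filter or the fit of all 12 libraries. Among named members that were not called, ZBTB7B in HEK293T passed with DESeq2's size factors (0.48) and with the low-count filter (0.45), ZBTB17 in HEK293T and mESC with library size scaling (-0.71 and -0.69), ZBTB33 in neurons with library size scaling (0.48), and ZBTB10 in neurons with DESeq2's size factors, the low-count filter, library size scaling and the fit of all 12 libraries. In neurons ZBTB4 and ZBTB33 (without the first P-body library) and ZBTB10 (without the second) also passed. A crossed pairing in HEK293T, chosen after the data were seen, gave 26 enriched and 3 depleted members. Given only 2 libraries a group and member levels down to a few CPM, changes of the low members are the least certain.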
